A study of Mus musculus with 6 samples.

Results

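The 10 genes described here encode the proteoglycans and the link protein of cartilage matrix: *Acan*, *Hapln1*, *Vcan*, *Bgn*, *Dcn*, *Fmod*, *Lum*, *Prelp*, *Epyc* and *Hspg2*. The rule lists them by name and uses no measured value, although the list was drawn up with earlier results of these data known. They are 10 of the 41388 genes counted. All 10 passed the filter on low counts (above 1 CPM, a count scaled to the total of its library, in 2 or more samples) and were among the 14533 genes tested. RNA was sequenced from chondrocytes that had been isolated from the femoral head cartilage of male B6/129 mice aged 21 days and kept for 2 days in culture without treatment. *Postn*-/- chondrocytes (n = 3) were compared with *wt* chondrocytes (n = 3) to ask what loss of periostin, a matricellular protein, does to their transcripts. *Postn*-/- mice carried the Postn tm1Jmol allele in all tissues, so loss was not limited to chondrocytes. According to the methods, they came from heterozygous crosses on a B6129SF2/J background with littermate *wt* controls.

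Aggrecan, the main proteoglycan of cartilage, carries chondroitin and keratan sulphate chains and holds water in the tissue. Link protein, encoded by *Hapln1*, fixes aggrecan to hyaluronan, and versican, encoded by *Vcan*, is a relative of aggrecan found mainly in looser or precartilaginous matrix. Small leucine-rich proteoglycans bind collagen fibrils and influence their diameter and spacing, while perlecan, encoded by *Hspg2*, is a heparan sulphate proteoglycan of basement membranes and of the matrix close around chondrocytes.

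Total counts ran from 20587640 to 26572260 per library, and 3 counts, taken as the counting floor, corresponded to between 0.113 and 0.146 CPM. The targeted gene *Postn* had levels of 4.66, 4.27 and 5.67 CPM in *Postn*-/- against 10.1, 10.3 and 6.90 CPM in *wt*. All *Postn*-/- values lay below all *wt* values, which held for 6.57% of all tested genes, yet *Postn* reads were present in all 6 libraries. The log2 fold change of *Postn*-/- over *wt* was -0.91 (SE 0.22) in the quasi-likelihood test of edgeR. In this test the unadjusted p was 0.00362 and the adjusted p 0.717, here adjusted by the method of Benjamini and Hochberg. At an unadjusted p not above 0.05, 2.35% of all tested genes were lower. The authors reported no periostin staining in knee joints of *Postn*-/- mice and negligible serum levels, which are protein measures from other samples. Chondrocyte identity was checked with 15 marker genes, all of which were tested, and the sum of their CPM was 28540 to 44334. Fibroblast markers summed to between 1231 and 4219 CPM, blood markers to between 10.1 and 31.6 CPM and endothelial markers to between 4.19 and 9.48 CPM. wt 1 stood farthest from the other libraries. Its mean Euclidean distance in log2 CPM, taken over all tested genes together and not per gene, was 69.0 against 55.5 to 62.4 for the other 5.

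No member of the group passed the test between genotypes. In the same edgeR test, 0 of the 10 genes had an adjusted p not above 0.05 and 0 had an unadjusted p not above 0.05, and DESeq2 gave 0 on both counts. Over all tested genes the shares were 0.0138% (2 genes, *Dscaml1* and *Tm4sf1*, neither of them a proteoglycan) and 6.3%. *Acan*, *Vcan*, *Bgn*, *Dcn* and *Hspg2* had positive log2 fold changes and *Hapln1*, *Fmod*, *Lum*, *Prelp* and *Epyc* negative ones, from -0.23 to 0.39, none of them past the test. The median over the 10 was 0.0036 and over all tested genes 0.0042, and 50.8% of all tested genes were positive. Together the 10 genes took 1.67, 1.66 and 1.62% of the counts in *Postn*-/- and 1.65, 1.51 and 1.71% in *wt*. These shares overlapped and differed by 0.0260 percentage points (two-sided exact permutation test, p = 0.8, where 3 samples against 3 cannot go below 0.1). In RNA from whole cultures, fewer cells of a type and less RNA per cell cannot be told apart. The labels name separate knockout and wild-type samples, and the p-values measure the spread between these samples.

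**Figure D1:**
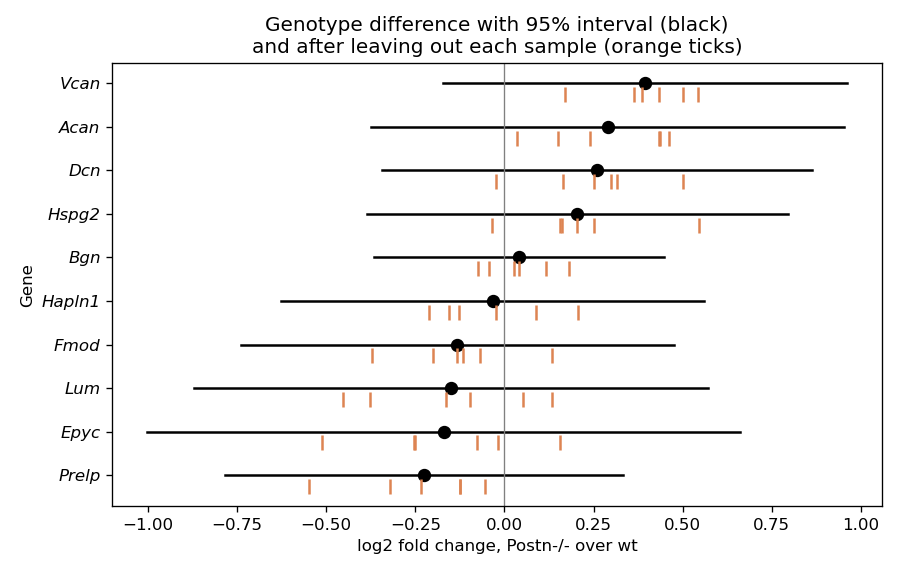
Log2 fold change of each gene, *Postn*-/- over *wt* (x axis), for the 10 genes (y axis). Black points and lines are the estimate and its 95% interval from edgeR, and orange ticks are the estimates after leaving out each sample in turn. All 10 intervals cross 0, and for 7 genes the ticks lie on both sides of it.

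Aggrecan, link protein and versican are described first. Levels of different genes are compared per kilobase of exon length (TMM-normalised CPM per kilobase), and levels of 1 gene across samples as TMM-normalised CPM, in which each library is scaled for its total and composition.

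*Acan* (ENSMUSG00000030607, chromosome 7 of GRCm38, 79053483 to 79115099, plus strand) had levels of 3399, 2375 and 3764 CPM in *Postn*-/- 1, 2 and 3 against 1604, 3101 and 3099 CPM in wt 1, 2 and 3. wt 1 was the lowest and *Postn*-/- 3 the highest, and *Postn*-/- 2 lay within the *wt* range. Group means were 3179 ± 720 and 2601 ± 864 CPM (SD, n = 3 each), a ratio of 1.22 with a 95% interval of 0.772 to 1.94. The log2 fold change was 0.29 (SE 0.29, adjusted p = 0.810 in edgeR's test), and without wt 1 it was 0.04. That library had the lowest chondrocyte marker sum, 28540 CPM against 33773 to 44334 CPM elsewhere. Without *Col2a1* the sum of the other 14 markers was 20268 CPM in wt 1, above the 20077 CPM of *Postn*-/- 2, so that place rested on *Col2a1*. wt 1 also had the highest proliferation marker sum, 1444 CPM against 422 to 918 CPM elsewhere, and the part of either in the *Acan* values was not tested.

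*Hapln1* (ENSMUSG00000021613, chromosome 13, plus strand, placed at 89540636 to 89611832 in the deposited tables) had levels of 2403, 1362 and 2618 CPM in *Postn*-/- against 1794, 2527 and 2211 CPM in *wt*. Both the lowest and the highest value belonged to *Postn*-/-, in replicates 2 and 3, so the genotypes overlapped fully. Means were 2128 ± 672 and 2177 ± 368 CPM, with a log2 fold change of -0.03 (SE 0.26, adjusted p = 0.981 in edgeR's test) and a 95% interval of the ratio of 0.647 to 1.47. Leaving out *Postn*-/- 2 turned the sign, to 0.21. Per kilobase, *Acan* and *Hapln1* were close: the ratio of *Acan* to *Hapln1* was 0.972, 1.20 and 0.988 in *Postn*-/- and 0.614, 0.843 and 0.963 in *wt*. Only *Postn*-/- 2 had more *Acan* than *Hapln1* per kilobase, and wt 1 had the lowest ratio. All *Postn*-/- ratios lay above all *wt* ratios, by a small margin over wt 3. It was the only one of 5 ratios computed without a test of which this held, it was singled out after its values were seen, and 3 samples against 3 cannot give an exact permutation p below 0.1.

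*Vcan* (ENSMUSG00000021614, chromosome 13, 89655312 to 89742509, minus strand) was the scarce member of the group. It had levels of 7.35, 7.85 and 8.10 CPM in *Postn*-/- against 6.73, 3.89 and 7.09 CPM in *wt*, from 183, 193 and 170 counts and from 175, 86 and 148 counts. Every *Postn*-/- sample lay above every *wt* sample, by a narrow margin over wt 3, and *Vcan* was the only one of the 10 genes (0 lay the other way) of which this held, against 7.03% of all tested genes. Means were 7.77 ± 0.381 and 5.90 ± 1.75 CPM, a ratio of 1.31 with a 95% interval of 0.888 to 1.95. The log2 fold change was 0.39 (SE 0.24, unadjusted p = 0.146 and adjusted p = 0.729 in edgeR's test). Without wt 2, the library with the lowest value, it was 0.17. With voomWithQualityWeights and 2 surrogate variables in limma, *Vcan* had an unadjusted p of 0.038 (adjusted p = 0.362) and was the only member not above 0.05, where 12.9% of all tested genes were. An antisense gene, *Gm4117*, overlaps the *Vcan* locus without sharing an exon base with it in the annotation.

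*Hapln1* and *Vcan* are neighbours on chromosome 13, 43.7 kb apart by their ends in the annotation (GENCODE M21). The 3′ ends face each other with no protein-coding gene between them. Their levels lay far apart: per kilobase, *Hapln1* was 935, 496 and 924 times as high as *Vcan* in *Postn*-/- and 763, 1858 and 892 times as high in *wt*. The 250 bases before the RefSeq start site are shown for this pair and for *Acan*, the 3 genes described first. Windows of other members are not shown. For *Acan* and *Vcan* this start site lies upstream of the locus given above. Sequences are from RefSeq on GRCm38.p6, 5′ to 3′ on the gene's strand. The windows are chr7:79052976-79053225 (plus) for *Acan*, chr13:89540386-89540635 (plus) for *Hapln1* and chr13:89742513-89742762 (minus) for *Vcan*. Capitals mark exact matches, on either strand, to the Sp1 core GGGCGG, the CCAAT box CCAAT, the TATA box TATAAA and the SOX core ACAAT.
Acan: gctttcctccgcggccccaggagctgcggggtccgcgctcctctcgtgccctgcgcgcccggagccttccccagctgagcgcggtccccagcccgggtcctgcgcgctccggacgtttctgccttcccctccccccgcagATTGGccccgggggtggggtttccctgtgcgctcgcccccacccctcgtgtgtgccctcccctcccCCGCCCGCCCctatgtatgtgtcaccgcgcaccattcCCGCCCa
Hapln1: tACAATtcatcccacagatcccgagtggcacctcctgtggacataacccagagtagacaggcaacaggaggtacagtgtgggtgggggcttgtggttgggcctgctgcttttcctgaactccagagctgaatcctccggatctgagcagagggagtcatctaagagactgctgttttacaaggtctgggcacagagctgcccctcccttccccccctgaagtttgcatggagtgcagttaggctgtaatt
Vcan: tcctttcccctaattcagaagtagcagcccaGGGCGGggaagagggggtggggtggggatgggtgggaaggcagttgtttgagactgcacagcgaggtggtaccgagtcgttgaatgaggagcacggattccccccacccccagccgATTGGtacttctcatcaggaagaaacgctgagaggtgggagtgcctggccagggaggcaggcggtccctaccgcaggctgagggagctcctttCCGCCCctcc

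The *Acan* window was 74.4% GC with 26 CpG and held 3 Sp1 cores, with first bases at -44, -40 and -7 from the start site, the first pair overlapping, and 1 CCAAT box at -110. The *Vcan* window was 62.4% GC with 10 CpG, with Sp1 cores at -219 and -10 and a CCAAT box at -103. *Hapln1* had 54.4% GC, 2 CpG and a single SOX core at -249. Over 32841 RefSeq windows of the same length, 32.7% held the Sp1 core, 33.9% the CCAAT box, 27.7% the SOX core and 12.4% the TATA box, with a median GC of 52.4% and a median of 6 CpG. A match describes letters and is no evidence of binding. *Hapln1* and *Acan* had unlike windows, and *Acan* and *Vcan* both held the Sp1 core and the CCAAT box. Per kilobase, *Hapln1* and *Acan* had similar levels, and those of *Acan* and *Vcan* were 790-fold (*Postn*-/-) and 858-fold (*wt*) apart. Whether these letters bear on the levels was not tested.

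The log2 ratio of *Acan* to *Vcan* per kilobase, which needs no scaling between libraries, was 9.83, 9.22 and 9.84 in *Postn*-/- and 8.87, 10.61 and 9.75 in *wt*. Both ends of the range were *wt* libraries, wt 1 with little *Acan* and wt 2 with little *Vcan*. Means were 9.63 ± 0.35 and 9.74 ± 0.87 (SD, n = 3 each), a difference of -0.12 (two-sided exact permutation test, p = 1, smallest possible 0.1).

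Among the small leucine-rich proteoglycans, biglycan and decorin are the closest relatives, both carrying chondroitin or dermatan sulphate chains and both able to bind TGF-β. *Bgn* (ENSMUSG00000031375, chromosome X, 73483602 to 73495933, plus strand) had levels of 2767, 3078 and 2463 CPM in *Postn*-/- against 3192, 2240 and 2645 CPM in *wt*. It was the steadiest member, with 1.42-fold between the lowest and the highest sample, both of them *wt*. Means were 2769 ± 308 and 2692 ± 477 CPM, and the log2 fold change was 0.04 (SE 0.18, adjusted p = 0.961 in edgeR's test). The ratio of 1.03 had a 95% interval of 0.776 to 1.36, the narrowest of the 10. Without wt 2 the log2 fold change was -0.08.

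*Dcn* (ENSMUSG00000019929, chromosome 10, plus strand, 97479500 to 97518162 in the deposited tables) had levels of 2103, 1565 and 981 CPM in *Postn*-/- against 1396, 1118 and 1371 CPM in *wt*. The 3 *wt* samples lay inside the range of the *Postn*-/- samples, which spanned 2.14-fold. Means were 1549 ± 561 and 1295 ± 154 CPM, with a log2 fold change of 0.26 (SE 0.26, adjusted p = 0.813 in edgeR's test). It was 0.50 without *Postn*-/- 3 and -0.02 without *Postn*-/- 1, so its direction rested on 1 library. The log2 ratio of *Dcn* to *Bgn* per kilobase was 1.15, 0.57 and 0.22 in *Postn*-/- and 0.36, 0.55 and 0.60 in *wt*. Decorin exceeded biglycan in all 6 samples, and the lowest and the highest ratio were both in *Postn*-/-. The difference between genotypes was 0.15 (two-sided exact permutation test, p = 0.8, smallest possible 0.1).

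Fibromodulin, lumican and PRELP form a subfamily. Fibromodulin and lumican can carry keratan sulphate and bind overlapping sites on collagen, and PRELP has a basic end that binds heparan sulphate. *Fmod* (ENSMUSG00000041559, chromosome 1, 134037254 to 134048277, plus strand) was the most abundant of the 10 genes, at 4541, 4954 and 4115 CPM in *Postn*-/- and 6653, 3166 and 5102 CPM in *wt*. The *wt* samples enclosed all 3 *Postn*-/- samples, with wt 1 highest and wt 2 lowest. Means were 4537 ± 420 and 4974 ± 1747 CPM, a log2 fold change of -0.13 (SE 0.26, adjusted p = 0.904 in edgeR's test). Without wt 1 the sign turned, to 0.13, as it did with 2 surrogate variables (0.01), and without wt 2 it was -0.37. The 95% interval of the ratio was 0.599 to 1.39.

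*Lum* (ENSMUSG00000036446, chromosome 10, plus strand, 97565501 to 97572703 in the deposited tables) had levels of 520, 775 and 391 CPM in *Postn*-/- against 411, 847 and 614 CPM in *wt*. Replicate 2 of each genotype was the highest of its group. In those libraries 6 hypertrophic markers summed to 16732 and 13715 CPM against 4029 to 5528 CPM in the other 4, mostly as *Spp1* and *Mmp13*. The 11 fibroblast markers summed to 3017 and 4219 CPM against 1231 to 2095 CPM, a difference carried in wt 2 by *Col1a1* and *Col1a2*. Without these collagens the other 9 summed to 320, 355 and 191 CPM in *Postn*-/- and 314, 196 and 217 CPM in *wt*, with wt 2 the lowest *wt* library. Their part in the *Lum* values was not tested. Means were 562 ± 195 and 624 ± 218 CPM, with a log2 fold change of -0.15 (SE 0.31, adjusted p = 0.909 in edgeR's test), which was 0.13 without wt 2.

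*Prelp* (ENSMUSG00000041577, chromosome 1, 133910304 to 133921414, minus strand) had levels of 909, 1487 and 794 CPM in *Postn*-/- against 1416, 1234 and 1083 CPM in *wt*. *Postn*-/- 1 and 3 lay below all *wt* samples and *Postn*-/- 2 above all of them. Means were 1063 ± 371 and 1244 ± 167 CPM, a log2 fold change of -0.23 (SE 0.24, adjusted p = 0.820 in edgeR's test). Without *Postn*-/- 2 it was -0.55 and without *Postn*-/- 3 it was -0.06. *Prelp* and *Fmod* lie 116 kb apart on chromosome 1 with no protein-coding gene between them in the annotation, and the ratio of *Fmod* to *Prelp* per kilobase ran from 2.81 to 5.67. Of the 50-base words in *Prelp* transcripts, 8.47% also occur in *Gm15851*, an antisense gene with 5 counts or fewer per library.

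*Epyc* (ENSMUSG00000019936, chromosome 10, 97644068 to 97682454, plus strand) encodes epiphycan, a member found mainly in growth plate and epiphyseal cartilage. It had levels of 356, 506 and 508 CPM in *Postn*-/- against 241, 723 and 579 CPM in *wt*. With 3.00-fold between wt 1 and wt 2 it varied most of the 10 genes, and the *wt* samples enclosed all *Postn*-/- samples. Means were 457 ± 87.5 and 514 ± 247 CPM, a log2 fold change of -0.17 (SE 0.36, adjusted p = 0.911 in edgeR's test), and the 95% interval of the ratio, 0.499 to 1.58, was the widest of the 10 on the log scale. It was -0.51 without wt 1 and 0.16 without wt 2. Of the 50-base words in *Epyc* transcripts, 39.5% also occur in *Gm10754*, a noncoding gene on the opposite strand that had 0 counts in all 6 libraries, so reads may have been lost to ambiguity and the level of *Epyc* relative to other genes is uncertain.

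*Hspg2* (ENSMUSG00000028763, chromosome 4, 137468769 to 137570630, plus strand) had levels of 269, 286 and 250 CPM in *Postn*-/- against 149, 331 and 218 CPM in *wt*. The *Postn*-/- samples lay close together, inside a *wt* range of 2.22-fold from wt 1 to wt 2. Means were 268 ± 17.9 and 233 ± 91.7 CPM, a log2 fold change of 0.20 (SE 0.26, adjusted p = 0.843 in edgeR's test). It was 0.55 without wt 2 and -0.03 without wt 1. As with *Lum*, replicate 2 was the highest sample in each genotype.

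**Figure D2:**
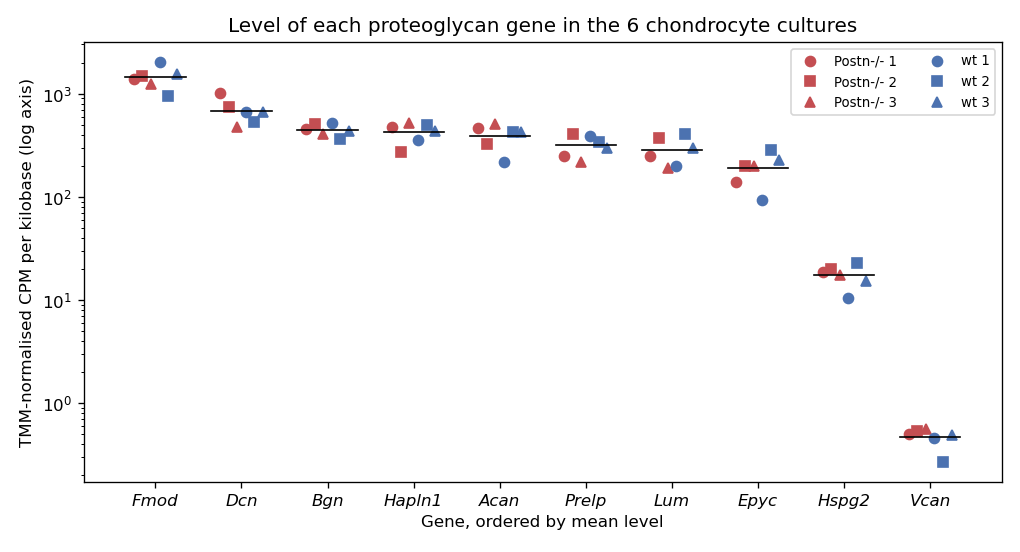
TMM-normalised CPM per kilobase on a log axis (y axis) of the 10 genes in order of mean level (x axis), with 1 point per sample, *Postn*-/- in red and *wt* in blue, and a line at the mean over the 6 samples. From *Fmod* to *Epyc* the ranges of neighbours overlap, *Hspg2* lies 10.8-fold below *Epyc*, and *Vcan* 37.0-fold below *Hspg2*.

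Per kilobase, averaged over the 6 samples, *Fmod* was at 1438 ± 351, *Dcn* at 682 ± 189, *Bgn* at 448 ± 59.3 and *Hapln1* at 426 ± 96.0 CPM per kilobase (SD, n = 6). *Acan* followed at 393 ± 106, *Prelp* at 319 ± 76.3, *Lum* at 286 ± 90.7, *Epyc* at 190 ± 65.9, *Hspg2* at 17.5 ± 4.35 and *Vcan* at 0.473 ± 0.106. *Fmod* exceeded *Dcn* in all 6 samples, by 2.11-fold on average, and *Dcn* exceeded *Bgn* in all 6, by 1.52-fold, although the ranges of each pair overlapped. The levels of *Bgn*, *Hapln1* and *Acan* lay close with overlapping ranges, and their differences were not tested. *Bgn* was above *Hapln1* in 2 of 6 samples and *Hapln1* above *Acan* in 5 of 6. *Acan* was above *Prelp* in 4, and *Prelp* above *Lum* and *Lum* above *Epyc* in 5 of 6, again with overlapping ranges. Both steps at the bottom of the order, from *Epyc* to *Hspg2* and from *Hspg2* to *Vcan*, held in every sample without overlap. Among the 14533 tested genes ranked per kilobase, *Fmod* was at place 19, *Dcn* at 61 and *Acan* at 110, while *Hspg2* was at 3070 and *Vcan* at 12601.

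The summed level of the 10 genes was 17274, 16395 and 15891 CPM in *Postn*-/- and 16862, 15290 and 16930 CPM in *wt*, a range of 1.13-fold. Single members varied more, with a median of 2.12-fold between the lowest and the highest sample. *Fmod* made up 28.9% of the summed CPM, *Acan* 17.6%, *Bgn* 16.6%, *Hapln1* 13.1%, *Dcn* 8.65% and *Prelp* 7.02%, with the other 4 at 3.61% or less. The mix therefore differed between libraries of similar sum. wt 1 had the most *Fmod* and the least *Acan*, with a ratio of *Acan* to *Fmod* per kilobase of 0.108, while the other 5 libraries had ratios from 0.216 (*Postn*-/- 2) to 0.440 (wt 2).

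**Figure D3:**
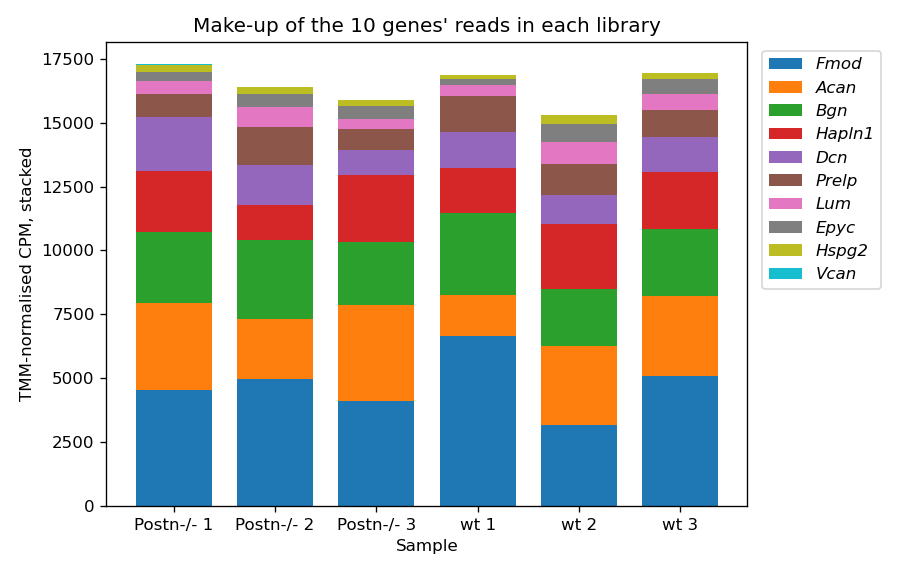
Stacked TMM-normalised CPM of the 10 genes (y axis) in each of the 6 samples (x axis), 1 colour per gene. Bars reach between 15290 and 17274 CPM, while the *Fmod* segment runs from 3166 CPM in wt 2 to 6653 CPM in wt 1.

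The biological coefficient of variation of these genes in edgeR, an estimate of the relative spread between replicates, was 0.17 (*Bgn*) to 0.315 (*Epyc*), where the common value over all tested genes was 0.208. Over the 1888 tested genes with a mean of at least 100 CPM the median was 0.14. The median fold between the lowest and the highest sample was 1.57 over all tested genes and 1.35 over those 1888, to which *Vcan*, at 3.89 to 8.10 CPM, does not belong. This is a description, since the members were not drawn at random. Extremes were shared out unevenly: wt 1, wt 2 and *Postn*-/- 3 each held the lowest value of 3 members, and wt 3 held no extreme. wt 1 was lowest for *Acan*, *Epyc* and *Hspg2* and highest for *Bgn* and *Fmod*. wt 2 was lowest for *Vcan*, *Bgn* and *Fmod* and highest for *Lum*, *Epyc* and *Hspg2*. *Postn*-/- 3 was highest for *Acan*, *Hapln1* and *Vcan* and lowest for *Dcn*, *Lum* and *Prelp*.

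**Figure D4:**
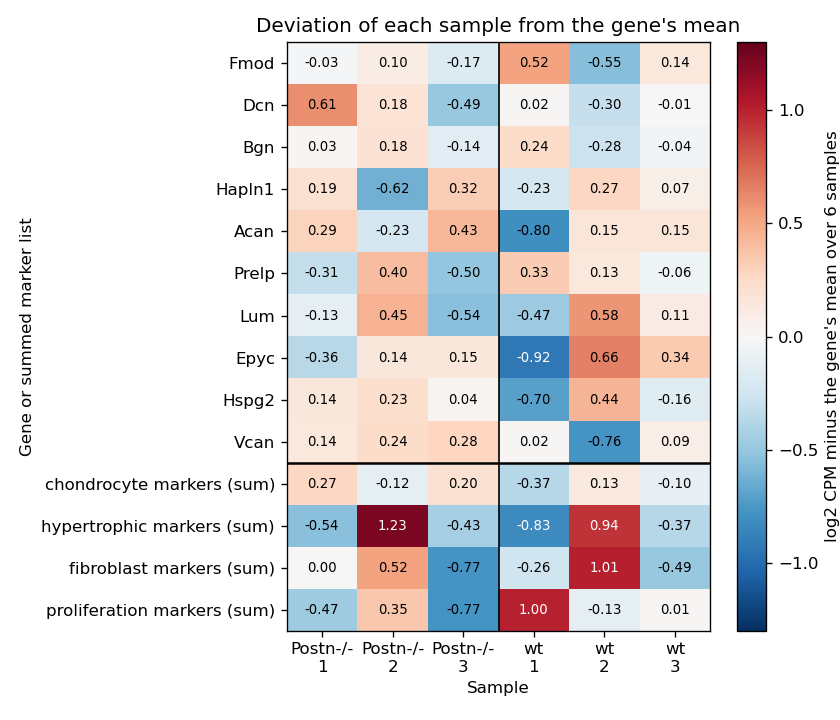
Log2 CPM of each gene minus its mean over the 6 samples (colour and printed value), with genes and summed marker lists as rows and samples as columns, a black line dividing *Postn*-/- from *wt*. *Acan*, *Epyc* and *Hspg2* are low in wt 1, where proliferation markers are high, and *Lum* is high in replicate 2 of both genotypes, as is the hypertrophic marker sum. The fibroblast marker sum is high there too, in wt 2 through *Col1a1* and *Col1a2* alone.

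*Dcn*, *Lum* and *Epyc* lie in a row on chromosome 10 with *Kera*, the gene of keratocan, between the latter pair. By their ends in the annotation (GENCODE M21), gaps are 47.0 kb from *Dcn* to *Lum*, 34.2 kb from *Lum* to *Kera* and 30.4 kb from *Kera* to *Epyc*. Levels along this cluster differed: *Kera* was below 1 CPM in all 6 samples and was not tested, while the lowest level of its neighbours was 241 CPM (*Epyc* in wt 1). The 3 tested neighbours did not share a sample order. *Dcn* was highest in *Postn*-/- 1 and *Lum* and *Epyc* in wt 2, and the lowest sample was *Postn*-/- 3 for *Dcn* and *Lum* and wt 1 for *Epyc*.

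The genes with the sample pattern nearest to that of *Acan* were *Zfp385c*, *Prkce*, *Pdk1*, *9630001P10Rik* and *Me1*. Likeness was the root mean square difference of gene-centred log2 CPM over the 6 samples, among 7934 genes with a root mean square of at least 0.5 times that of *Acan*. It was 0.0519 for *Zfp385c*, 0.0803 for *Prkce* and 0.0990 for *Me1*, where the pattern of *Acan* itself had a root mean square of 0.409. Since these genes were picked as the nearest on 6 values, their closeness is no evidence of a link to *Acan*. *9630001P10Rik* was at 0.461 to 1.08 CPM, *Zfp385c* at 4.08 to 9.53 CPM and *Prkce* at 3.88 to 8.20 CPM. *Pdk1* was at 33.8 to 84.2 CPM and *Me1* at 190 to 388 CPM, all below *Acan* at 1604 to 3764 CPM. *Hapln1* was the nearest member at 0.295 (place 817), followed by *Hspg2* at 0.31 (place 999).

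Other genes of the same matrix were counted from lists. Of 12 other small leucine-rich repeat genes, 10 were tested, 1 was higher at an unadjusted p not above 0.05 and 0 were lower in the edgeR test, where 3.95% of all tested genes were higher at this level. This was *Chad*, the gene of chondroadherin, which binds collagen II and chondrocyte integrins: 1270, 991 and 1067 CPM in *Postn*-/- and 524, 688 and 865 CPM in *wt*. Its genotypes did not overlap, and the log2 fold change was 0.68 (SE 0.20, unadjusted p = 0.00908 and adjusted p = 0.717 in edgeR's test). Osteoglycin (*Ogn*), at 583 to 1251 CPM, and osteomodulin (*Omd*), at 196 to 343 CPM, were abundant too, with unadjusted p of 0.778 and 0.556 in edgeR's test. Of the remaining hyaluronan-binding genes (5 of 6 tested), the basement membrane genes (5 of 5) and the cell surface proteoglycans (12 of 12), 0 had an unadjusted p not above 0.05 in edgeR's test. Over all tested genes the share in either direction was 6.3%. *Hapln3*, which lies 2 bases beyond the end of *Acan*, was at 2.95 to 7.09 CPM, far below it. *Cd44*, the hyaluronan receptor, was at 62.4 to 130 CPM with overlapping genotypes.

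For glycosaminoglycan synthesis 36 genes were listed, of which 35 were among the counted genes and 32 were tested. *Ext2*, a subunit of the heparan sulphate polymerase, was the only one of the 32 at an unadjusted p not above 0.05 in edgeR's test, where 6.3% of all tested genes were. It had levels of 134, 134 and 122 CPM in *Postn*-/- against 82.9, 101 and 88.9 CPM in *wt* without overlap, and its log2 fold change was 0.52 (SE 0.11, unadjusted p = 0.00152 and adjusted p = 0.717 in edgeR's test). In 4 of the 32, every *Postn*-/- sample lay above every *wt* sample, and in 0 below, against 7.03% and 6.57% of all tested genes. The median log2 fold change of the list was 0.09.

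Proteoglycan degradation had 13 genes, 11 of them tested. *Mmp3*, stromelysin, had levels of 118, 153 and 44.9 CPM in *Postn*-/- against 26.4, 31.1 and 57.3 CPM in *wt*, with overlap, a log2 fold change of 1.46 and an unadjusted p of 0.0125 (adjusted p = 0.717, edgeR's test). It was the only one of the 11 at 0.05 or below, beside 6.3% of all tested genes, and the aggrecanases *Adamts4* and *Adamts5* had log2 fold changes of 0.39 and 0.37 with unadjusted p of 0.107 and 0.183 in edgeR's test.

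Of 15 genes of collagens, receptors and growth factors that small leucine-rich proteoglycans bind, all tested, 5 were higher at an unadjusted p not above 0.05 and 0 lower in edgeR's test, beside 3.95% of all tested genes higher at this level. All 12 proliferation markers had negative log2 fold changes (median -0.63), 1 of them at this level, beside 2.35% of all tested genes lower, with overlapping genotypes for each of the 12, and 5 of 5 tested superficial zone and synovial markers had positive ones (median 0.79), 1 of them at this level. The part of either list in the collagen values was not tested. *Tlr2*, a receptor for biglycan, was at 25.1 ± 4.83 CPM in *Postn*-/- and 15.9 ± 1.94 CPM in *wt* (SD, n = 3 each; unadjusted p = 0.00545, edgeR's test). *Col6a2* was at 607 ± 47.7 and 328 ± 134 CPM, and *Col2a1*, the main collagen of cartilage, at 15848 ± 2193 and 9902 ± 1821 CPM (unadjusted p = 0.0111 and 0.0125, edgeR's test). None of the 5 had an adjusted p not above 0.05, as for every list here. *Col2a1* and *Col11a2*, both among these 5, also belong to the 15 chondrocyte markers, of which 3 were higher at an unadjusted p not above 0.05 and 0 lower in edgeR's test, again beside 3.95%. Over these 15 markers 8 log2 fold changes were positive and 7 negative, with a median of 0.04. *Cnmd*, the gene of chondromodulin, was the 1 marker with every *Postn*-/- value below every *wt* value, and 2 markers lay the other way, against 6.57% and 7.03% of all tested genes.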

How the data were processed

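The RNA-seq libraries were 3 *Postn*-/- and 3 *wt*, as the sample labels give them, made with the SMARTer Ultra Low RNA kit with single-end reads of 50 bases. The authors aligned reads with STAR 2.0.4b and counted unambiguous reads per gene with featureCounts 1.4.5. They deposited raw counts of 41388 genes per sample. The deposited CPM (counts scaled to the total of the library) and the deposited RPKM (this per kilobase of exon) were recomputed from the counts as a check and not used further. Whether counting used strand was not given in the sources used here. The submitters' processing notes name build mm9, whereas 76.1% of the 40254 genes matched to GENCODE M21 (97.3%) had identical ends on GRCm38, so GRCm38 is given.

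In R 4.3.3, 355 rRNA genes were removed, and a gene was tested if at least 2 samples exceeded 1 CPM. edgeR 4.0.16 with TMM normalisation (factors 0.97 to 1.02) and the quasi-likelihood test compared the genotypes over 14533 genes, with no covariate and Benjamini-Hochberg adjustment over all of them at 0.05. The steps were tested on simulated data. Single ratios were compared by exact permutation tests over samples. Over all 15 pairs of libraries, within and across genotypes, chi-square per degree of freedom was 26.5 to 81.3, and within genotypes 28.7 to 81.3, far above counting noise, so each library counted as 1 sample. Counting floors cover counting error only. Patterns near *Acan* used log2 CPM with a prior count of 2. Alternatives were DESeq2 1.42.0 and its size factors, upper quartile and total count scaling, 2 other filters, a robust fit, limma 3.58.1 voomWithQualityWeights without and with sva 3.50.0 surrogate variables (the study's own model), a block for replicate number, and omission of each sample.

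The named genes were the 10 members, *Postn*, at most 3 genes of smallest p per list and the 5 genes nearest to *Acan*. *Cnmd*, *Col1a1*, *Col1a2*, *Spp1*, *Mmp13*, *Kera*, *Ogn*, *Omd*, *Adamts4*, *Adamts5*, *Cd44*, *Hapln3*, *Gm4117*, *Gm10754*, *Gm15851*, *Dscaml1* and *Tm4sf1* are named for their position, function or count. The members and lists were chosen with earlier results of these data known. The table of RefSeq promoters used here matched 8 of the 10 members, the others being *Dcn* and *Lum*.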

Additional observations from a re-analysis of the deposited data

How the results depend on the processing

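None of the 10 genes passed an adjusted p of 0.05 in the main analysis or under any of 16 alternatives. The number of all genes called was 2, and 1 with upper quartile normalisation, total count scaling, voomWithQualityWeights or the replicate block, 3 with voomWithQualityWeights and surrogate variables, 9 with no filter on low counts, 0 with the filter at 1 CPM in all 6 samples and 11 with DESeq2. Leaving out 1 sample gave 1 to 2. *Fmod* changed sign to 0.013 with surrogate variables. The other members kept their sign under every alternative that used all 6 samples.

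Leaving out each sample in turn gave log2 fold changes of -0.21 to 0.21 for *Hapln1*, -0.0754 to 0.18 for *Bgn*, -0.0247 to 0.50 for *Dcn* and -0.37 to 0.13 for *Fmod*. For *Lum* they ran from -0.45 to 0.13, for *Epyc* from -0.51 to 0.16 and for *Hspg2* from -0.0337 to 0.55. *Acan* (0.04 to 0.46), *Vcan* (0.17 to 0.54) and *Prelp* (-0.55 to -0.06) kept their sign. The log2 ratio of *Acan* to *Vcan* differed between genotypes by -0.55 to 0.32, that of *Dcn* to *Bgn* by -0.10 to 0.36, and the share of the library by -0.0323 to 0.0703 percentage points. In 4 of the 6 cases 1 of the 10 members had an unadjusted p not above 0.05 in the edgeR test. It was *Prelp* without *Postn*-/- 2, *Dcn* without *Postn*-/- 3, *Epyc* without wt 1 and *Hspg2* without wt 2. In the same order, 1104 of 14277, 425 of 14259, 787 of 14456 and 1257 of 14427 tested genes were at this level. Without *Postn*-/- 1 or without wt 3 no member was, beside 868 of 14428 and 878 of 14309 tested genes. The cause of the shifts between these fits was not tested.

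Samples with the same replicate number had deviations that correlated by 0.0824, 0.155 and 0.143 across genes, against -0.13 to 0.0143 for other pairs. Each sample correlated best with its own number. Deviations were taken from the mean of only 3 samples per genotype, so such a match can arise without pairing and cannot decide the question. The labels name no pairs, and the numbers were not taken as pairs. With the replicate block the log2 ratio of *Acan* to *Vcan* differed by -0.12 and *Dcn* to *Bgn* by 0.15 (exact sign-flip permutation p = 1 and 0.75, smallest possible 0.25), and no call on a member changed.

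With 3 samples per genotype, the narrowest 95% interval of a ratio, that of *Bgn*, ran from 0.776 to 1.36. *Vcan* had the fewest counts, 86 to 193 per library, and its SE (0.24) was not larger than that of *Acan* (0.29).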
